A study of Mus musculus with 4 samples.

Results

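Genes of the Prame family were described in cultured mouse spermatogonia of the strains C57BL/6 (B6) and 129. The members were the genes whose symbol in the deposited table begins with Prame, 14 of the 32285 genes counted. A member is called counted below when it had 10 or more counts in both libraries of a strain, and 5 members met this: Pramef12, Pramel1, Pramef8, Pramel3 and Prame. The family was chosen by symbol and its counted members were selected on these same read counts, so their levels are given as a description. The cells were GS cells, a culture of spermatogonia, started from testes of mice aged 10 days, and the labels give both strains as wild-type. There were 4 libraries, 2 per strain, each of 20375086 to 25374801 counts. The B6 titles carry the token F0, which the 129 titles lack and the labels do not explain. The labels name neither the substrain of 129 nor whether a strain's libraries are separate animals or cultures, so the spread between them may be technical.

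PRAME proteins are built of leucine-rich repeats, and the family has multiplied by gene duplication in mammals. Human PRAME is a cancer-testis antigen, a protein made in germ cells and in tumours. It is known to act as a substrate receptor of ubiquitin ligases built on cullin 2 and to repress signalling by retinoic acid receptors, and retinoic acid is the signal that starts the differentiation of spermatogonia. In the mouse, most of the family lies in tandem on chromosome 4, and single members are known from spermatogonia, oocytes and early embryos.

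The family divided into a few abundant genes and many with almost no reads. The 5 counted members had 46 or more counts in every library, so they met the minimum in both strains. The other 9 had at most 4 counts in any library, and 6 of them, Pramel4, Pramel6, Pramel7, Pramef6, Pramef20 and Pramef25, had none. Pramel7, which is known to direct the degradation of UHRF1 in early embryos, and its neighbour Pramel6 were among those at 0. A count of 0 allows up to 3 counts, or 0.121 to 0.149 CPM (each count divided by its library size and put on one scale) in these libraries. These limits cover counting error only. Pramel5 had 3 and 1 counts in B6 and 0 in both 129 libraries, and Pramef17 had 2 counts in 1 B6 library. Pramef12os, a transcript on the opposite strand within the span of Pramef12, had 1 and 3 counts in B6 and 4 and 1 in 129. Its 767 exon bases share 0 with the exons of Pramef12.

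Pramef12, which male mice are known to need to keep spermatogenesis going, was the most abundant member. It lies at chr4:144391674-144408464 on the minus strand (mm10). Its level was 408 and 330 CPM in the B6 libraries and 99.5 and 132 CPM in the 129 libraries. The lower B6 library was 2.49 times the higher 129 library, so the strains did not overlap. The means were 369 ± 55.1 CPM in B6 and 116 ± 23.2 CPM in 129 (SD, n = 2 each). Of all genes in the table, 374 had a higher mean CPM in B6 than Pramef12 had there, without regard to gene length. In the edgeR fit across all genes the log2 fold change (129 over B6) was -1.67 (SE 0.22, adjusted p = 0.030), a level 3.18 times as high in B6. In such bulk RNA, fewer cells of a type and less RNA per cell cannot be told apart.

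Pramel1, a testis gene at chr4:143394428-143400160 on the plus strand, followed Pramef12. It stood at 165 and 195 CPM in B6 and at 57.1 and 71.9 CPM in 129. The libraries of the strains were again apart, by 2.30 times between the nearest ones. The means were 179.98 ± 21.0 and 64.5 ± 10.5 CPM, and the log2 fold change was -1.48 (SE 0.21, edgeR adjusted p = 0.033).

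Pramef8, the next gene along the chromosome at chr4:143412426-143421091, had the most even values within a strain. They were 114 and 119.95 CPM in B6 and 46.6 and 43.4 CPM in 129. The higher library exceeded the lower 1.06 times within B6 and 1.07 times within 129, against 2.43 times between the nearest libraries of the strains. Its log2 fold change was -1.38 (SE 0.20, edgeR adjusted p = 0.033).

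The 2 counted members on the X chromosome were far less abundant and had smaller fold changes. Pramel3, at chrX:135302307-135312652, stood at 19.0 and 14.7 CPM in B6 and at 10.1 and 14.2 CPM in 129. The nearest libraries of the strains were only 1.03 times apart, while the B6 libraries themselves were 1.29 times apart. The log2 fold change was -0.47 (SE 0.37, edgeR adjusted p = 0.44). Prame, the gene the family is named for, at chrX:135613002-135627705, stood at 3.66 and 2.67 CPM in B6 and at 2.75 and 2.18 CPM in 129. The strains overlapped, and the log2 fold change was -0.37 (SE 0.47, edgeR adjusted p = 0.65). Prame had only 46 to 91 counts per library. Whether the X-linked genes differ from those of chromosome 4 in their strain difference was not tested.

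**Figure D1:**
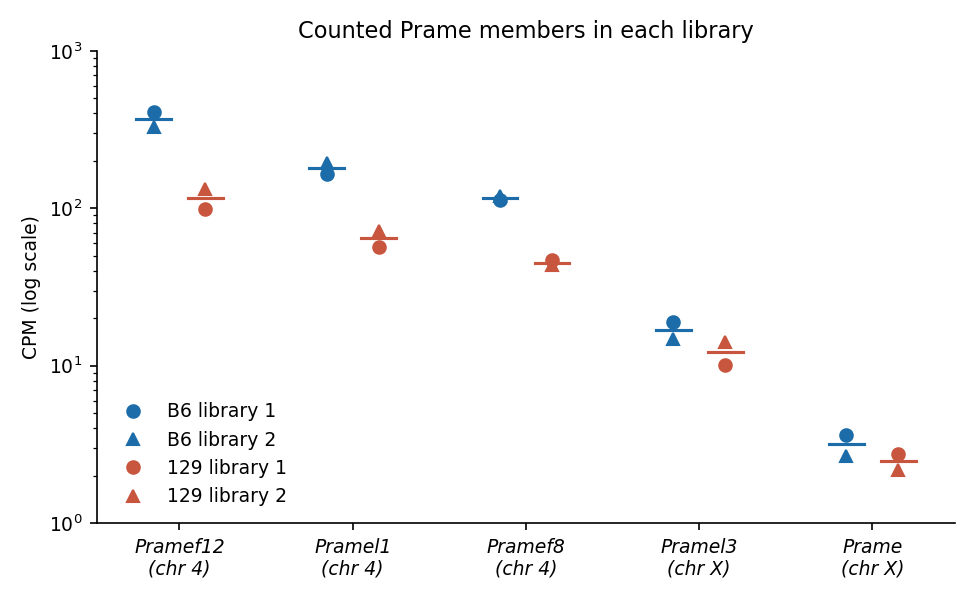
CPM of the 5 counted members in each library, on a log axis; circles are library 1 and triangles library 2 of a strain, and short lines are strain means. Pramef12, Pramel1 and Pramef8 lie 2.30 times or more apart between the nearest B6 and 129 libraries, and the Prame values of the strains overlap.

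In the fit 3 members were lower in 129, 0 were higher and 2 did not pass, out of the 5 that were tested. Over all 16005 genes tested 2.86% were called, 1.02% as lower and 1.84% as higher, with a median log2 fold change of 0.02. A fold change at or below that of Pramef8 was found for 4.96% of the genes. Both 129 libraries lay below both B6 libraries for 4 of the 5 members, as for 29.2% of all genes tested. These counts describe the members and support nothing further, since the family was proposed with the counts of these libraries in view. With 2 libraries per strain the smallest two-sided exact permutation p of a single gene is 0.333.

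The edgeR calls of the 3 genes did not all hold with a library left out, while their fold changes moved little. Without B6 replicate 1, B6 replicate 2 or 129 replicate 1, none of the 3 passed. Few genes of any kind were called in those fits, so this loss is not particular to the 3 members. Without 129 replicate 2, Pramef12 and Pramel1 passed and Pramef8 did not. Their log2 fold changes lay between -1.89 and -1.32 in these fits. A strain left with 1 library is assumed there to vary as the other does. DESeq2 and limma-voom called the same 3 members lower, with 5.7% and 0.625% of all genes called lower by them.

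**Figure D2:**
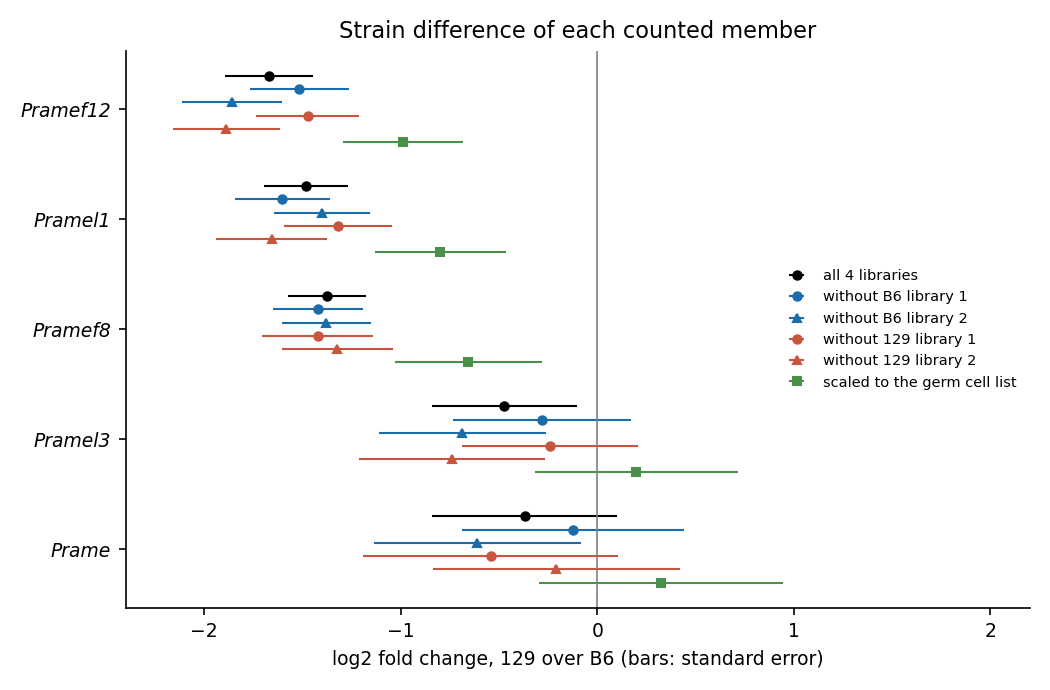
Log2 fold change of 129 over B6 for the 5 counted members, with bars of 1 standard error, from all 4 libraries, with each library left out and with libraries scaled to germ cell genes. The chromosome 4 members lie below 0 in every setting drawn, and Pramel3 and Prame move above 0 under the germ cell scaling.

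The family's summed level was set by the chromosome 4 genes. The 14 members together reached 709 and 662 CPM in B6 and 216 and 264 CPM in 129, 2.86 times as much in B6 by the means. The 3 chromosome 4 genes made up 686 and 645 CPM of this in B6 and 203 and 248 CPM in 129. The X-linked pair summed to 22.7 and 17.4 CPM in B6 and to 12.9 and 16.4 CPM in 129. The makeup differed less than the total: Pramef12 took 57.5% and 49.8% of the summed CPM in B6 and 46.0% and 50.1% in 129. Pramel1 took 23.3% to 29.4%, and Pramef8 16.0% to 21.6%. Pramel3 took 2.68% and 2.22% in B6 and 4.67% and 5.39% in 129.

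Per length the order of the members was the same in all 4 libraries. CPM per kb of exon was 158 and 128 for Pramef12 in B6 and 38.7 and 51.4 in 129. Pramel1 stood at 59.1 and 69.7 in B6 and 20.4 and 25.7 in 129, and Pramef8 at 27.2 and 28.7 in B6 and 11.2 and 10.4 in 129. Pramel3 was at 2.73 to 5.14 and Prame at 0.962 to 1.61 over the libraries. Within a strain no neighbours in this order overlapped. Pramef12 in 129, at 38.7 and 51.4 CPM per kb, was below Pramel1 in B6.

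How far reads can tell the members apart differs from gene to gene. All windows of 76 bases, the read length, were taken from each member's annotated transcripts and searched in the transcripts of all other genes, on both strands. Pramef12 had 2558 such windows, Pramel1 2719 and Pramef8 4321, and 0 of them occurred in another gene. Prame shared 0.182% of its windows. Pramel3 shared 70.0%, namely 2536 of 3623, with 4 neighbouring genes on the X chromosome. Gm15023 held 60.1% of its windows, AV320801 54.5%, Gm5128 40.4% and Gm7903 40.1%. A coding window that Pramel3 shares with all 4 of them, bases 273 to 348 of its coding sequence, is shown because reads from it cannot be assigned to one gene.
Pramel3: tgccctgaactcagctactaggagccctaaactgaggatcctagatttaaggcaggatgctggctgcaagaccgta
Pramel3 may therefore have gained or lost counts, and its level is uncertain. AV320801 had 5.02 and 4.50 CPM in B6 and 2.995 and 4.69 CPM in 129. Its log2 fold change was -0.31 (SE 0.45, edgeR adjusted p = 0.69). Gm15023 had at most 6 counts in a library, and Gm5128 and Gm7903 were at 0.

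Shared windows were also found in members below the minimum of 10 counts, but not in all of them. Pramel4 shared 82.0% of its windows, Pramef17 64.1%, Pramef25 42.3%, Pramef6 25.1% and Pramel5 11.9%. Pramel6, Pramel7 and Pramef20 shared 0% and had 0 counts in all 4 libraries. For these 3 genes the absence of counts does not go with shared windows. A window found in no other annotated transcript may still occur elsewhere in the genome, which was not searched.

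The coding sequences of the counted members have diverged. The first 60 coding bases of each are shown to compare the genes where their proteins begin.
Pramef12: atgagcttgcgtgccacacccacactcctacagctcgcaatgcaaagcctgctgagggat
Pramef8: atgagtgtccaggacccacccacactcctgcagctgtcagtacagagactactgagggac
Pramel1: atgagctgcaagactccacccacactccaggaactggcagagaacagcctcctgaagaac
Pramel3: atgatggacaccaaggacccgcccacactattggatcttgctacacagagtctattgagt
Prame: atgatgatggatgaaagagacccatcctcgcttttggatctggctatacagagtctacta
Over the whole coding sequence Prame and Pramel3 were 73.7% identical at aligned bases. Pramef12 and Pramef8 were 63.9% identical, Pramef8 and Pramel1 60.6%, and Pramef12 and Pramel1 60.1%. Identity between an X-linked and a chromosome 4 member was 51.5% to 55.8%. The longest coding stretch without a mismatch was 24 bases, between Prame and Pramel3, and 16 bases between Pramef12 and Pramef8. All are shorter than a read. Pramef8 was closest to family genes with almost no reads. Its identity was 74.9% to Pramef25, which had 0 counts, and 74.2% to Gm13119, which had 1 count in 1 library. Pramel1 was likewise closest to a gene with 0 counts, Pramef20, at 63.0%. The closest gene to Pramef12 was Pramef8.

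The counted genes of chromosome 4 stand at the ends of the tandem array. Pramel1 and Pramef8 open it and Pramef12 closes it, over 1014 kb from the start of Pramel1 to the end of Pramef12. Between these ends the table holds 26 further genes. Of them 21 had 0 counts, and the other 5 had at most 4 counts in any library. At this depth, nearly all counts came from the edges of the array. Pramel1, Pramef8 and Pramef12 shared 0% of their windows with other genes. Most family genes between them shared 6.84% (Gm13078) to 82.0% (Pramel4). Oog4, Gm13089, Pramef20 and Pramef12os shared 0%, and of these Oog4, Gm13089 and Pramef20 had 0 counts. Whether genes with shared windows had low counts because their reads were not assigned was not tested.

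**Figure D3:**
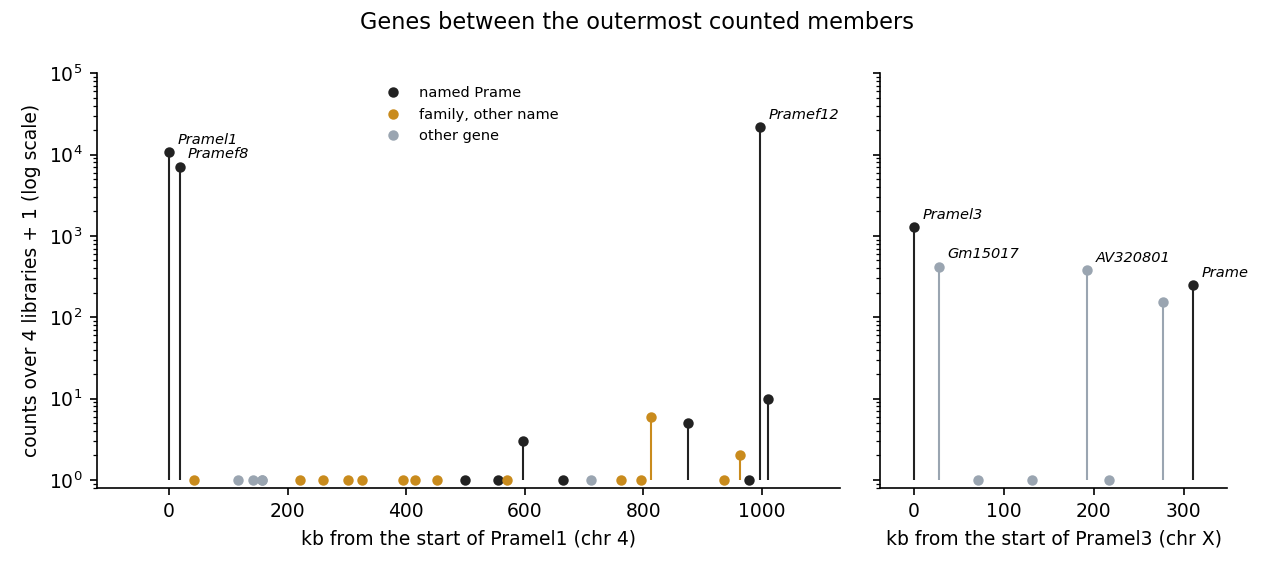
Counts summed over 4 libraries plus 1, on a log axis, for every gene of the table between the outermost counted members, placed by distance from Pramel1 on chromosome 4 (left) and from Pramel3 on chromosome X (right). On chromosome 4 the 3 counted members stand at the 2 ends of 1014 kb, and the genes between them have at most 4 counts in a library. Most family genes between them share windows with other genes, which these counted members do not.

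The genes next to the groups did not follow one direction. The 3 nearest tested genes on each side of the chromosome 4 and X groups, a choice made after the data were seen, had 0 edgeR calls among 12. At an unadjusted p under 0.05 there were 6, and DESeq2 called 3. Over all 16005 genes tested, edgeR called 457, 4492 had an unadjusted edgeR p under 0.05, and DESeq2 called 2455. Lrrc38, 23.4 kb before Pramel1, had 1.08 and 0.743 CPM in B6 and 0.145 and 0.0474 CPM in 129. Its log2 fold change was -3.20 (SE 0.78, edgeR adjusted p = 0.057). On the same side Prdm2, a histone methyltransferase gene, was at -0.74 (SE 0.18) and Pdpn, which encodes podoplanin, at 1.12 (SE 0.47). On the other side Dhrs3, a retinaldehyde reductase gene 484.4 kb after Pramef12, was at 3.51 (SE 0.82), with 64.9 and 12.3 CPM in 129 and 3.70 and 3.02 CPM in B6. Vps13d was at -0.01 (SE 0.20). Around the X group, Tcp11x2, 27 kb after Prame, was at 2.33 (SE 0.48) and Nxf2, a germ cell mRNA export gene, at -0.81 (SE 0.26).

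Many family genes carry other symbols in the table. Through the current RefSeq symbols and synonyms, 26 further genes of the table belong to the family, among them the oogenesins Oog1 to Oog4, known from oocytes. Of these 22 had no count, 4 had 1 to 4 counts in their highest library, and 0 reached the minimum. Windows shared with other genes were found in 23 of the 26. By symbol and synonym the family in the table thus comes to 40 genes, of which 5 were counted. Genes alike only in sequence were not added. Among these is AV320801, which holds 54.5% of the windows of Pramel3 and had 62 to 125 counts per library. The 8 genes of an oocyte list summed to 23.4 and 11.1 CPM in B6 and to 7.34 and 10.2 CPM in 129. Figla, an oocyte transcription factor gene, had the most, with 419 and 106 counts in B6 and 78 and 118 in 129, and Nlrp5 had 126 counts in 1 B6 library and at most 4 in the others.

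The counted members had more CpG dinucleotides upstream than the others. CpG is the site of DNA methylation, and genes of the germ line are often held silent by it in other tissues. The RefSeq table (GRCm38.p6) holds the 250 bases before the start of 12 of the 14 members, 4 of them counted. The CpG number was 18 for Pramel1, 7 for Prame, 6 for Pramef12 and 5 for Pramel3. It was 0 to 2 for the 8 members without 10 counts and 0 to 4 for the 20 family genes under other symbols that have an entry. Over all 32851 windows of this length the median was 6. Neither methylation nor its part in these levels was measured or tested. The upstream sequences of the 4 counted genes are shown with those of Pramef20, the array neighbour of Pramef12 with 0 counts, and Pramel5, with at most 3 counts. Each runs 5′ to 3′ on the gene's own strand, and capitals mark CpG.
Pramel1 (chr4:143394191-143394440, plus strand): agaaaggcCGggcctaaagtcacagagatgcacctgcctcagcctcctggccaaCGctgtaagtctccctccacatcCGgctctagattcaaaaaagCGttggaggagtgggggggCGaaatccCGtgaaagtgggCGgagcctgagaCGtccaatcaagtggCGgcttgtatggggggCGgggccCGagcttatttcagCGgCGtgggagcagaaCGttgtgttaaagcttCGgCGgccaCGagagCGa
Pramef12 (chr4:144408465-144408714, minus strand): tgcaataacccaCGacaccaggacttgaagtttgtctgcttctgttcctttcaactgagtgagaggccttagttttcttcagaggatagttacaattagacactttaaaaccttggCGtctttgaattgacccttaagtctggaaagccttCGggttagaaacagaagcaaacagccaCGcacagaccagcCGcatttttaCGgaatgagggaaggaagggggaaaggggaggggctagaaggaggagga
Prame (chrX:135627706-135627955, minus strand): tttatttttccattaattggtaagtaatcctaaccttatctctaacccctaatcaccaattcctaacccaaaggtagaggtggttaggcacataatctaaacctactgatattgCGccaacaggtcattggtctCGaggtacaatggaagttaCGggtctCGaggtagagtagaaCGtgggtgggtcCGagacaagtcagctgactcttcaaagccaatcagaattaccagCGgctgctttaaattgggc
Pramel3 (chrX:135302066-135302315, plus strand): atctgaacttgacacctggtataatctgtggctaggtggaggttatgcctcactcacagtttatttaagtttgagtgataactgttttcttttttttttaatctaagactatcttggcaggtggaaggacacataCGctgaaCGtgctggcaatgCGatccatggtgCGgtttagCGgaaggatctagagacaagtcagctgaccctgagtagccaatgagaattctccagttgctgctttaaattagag
Pramef20 (chr4:144377934-144378183, minus strand): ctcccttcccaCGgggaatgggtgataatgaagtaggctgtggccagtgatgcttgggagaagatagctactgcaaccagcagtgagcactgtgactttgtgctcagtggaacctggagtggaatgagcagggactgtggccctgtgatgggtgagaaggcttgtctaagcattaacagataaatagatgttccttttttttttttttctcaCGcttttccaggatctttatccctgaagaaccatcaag
Pramel5 (chr4:144280467-144280716, minus strand): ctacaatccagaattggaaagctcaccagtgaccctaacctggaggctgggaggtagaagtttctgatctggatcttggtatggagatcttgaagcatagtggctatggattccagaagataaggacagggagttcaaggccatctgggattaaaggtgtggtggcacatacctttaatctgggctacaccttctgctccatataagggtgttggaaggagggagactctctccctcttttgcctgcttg

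**Figure D4:**
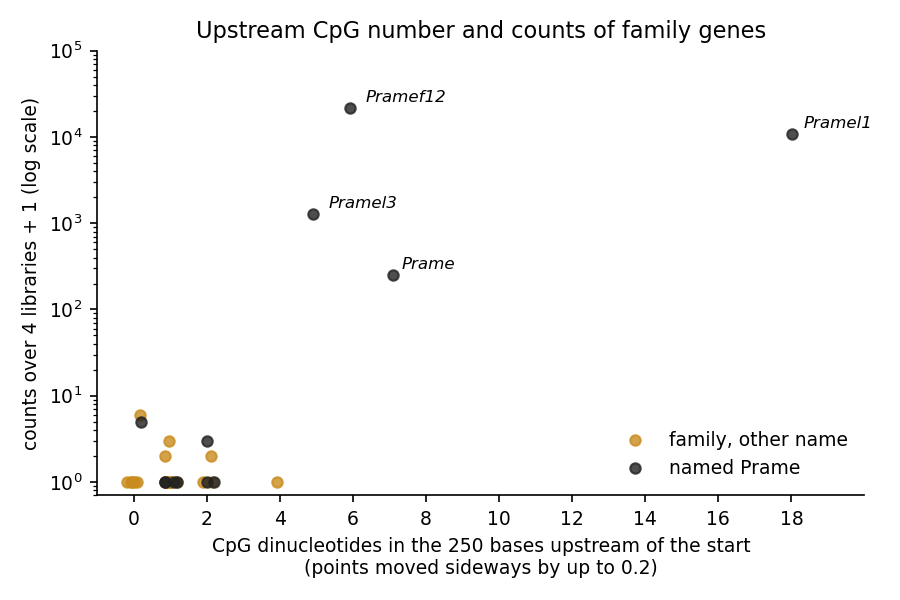
CpG dinucleotides in the 250 bases upstream (horizontal) against counts summed over 4 libraries plus 1 (vertical, log scale) for the 12 members and 20 family genes under other symbols with an entry. The 4 counted members have 5 to 18 CpG, and the 28 other genes have 0 to 4.

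Common promoter motifs were searched on both strands of the windows of the 4 counted genes. CCAAT occurred 5 times upstream of Prame, once upstream of Pramel1 and once upstream of Pramel3, and 33.8% of all windows hold it. GGGCGG, the GC box, occurred 2 times upstream of Pramel1 and is held by 32.7% of all windows. The E-box CACGTG (6.02% of all windows) and TATAAA (12.4%) occurred in none of the 4. The windows of Prame and Pramel3 share a run of 17 bases, shown as the longest match between any 2 counted members.
Prame and Pramel3: gagacaagtcagctgac
It occurs in 6 of all windows on either strand: those of Prame, Pramel3, AV320801, Gm15023, Gm5128 and Gm7903, all on the X chromosome. Between the windows of Pramef12 and Pramel1, both lower in 129, the longest shared run was 7 bases.

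None of the tested genes of the PRAME partner list was called between the strains. The list holds genes of proteins that PRAME proteins are known to work with, and also Dnmt1. Of the 10 listed, 9 were tested, and edgeR and DESeq2 called 0, with 0 at an unadjusted p under 0.05 in edgeR. Over all 16005 genes tested, edgeR called 2.86% and DESeq2 called 2455, and 4492 had an unadjusted edgeR p under 0.05. So few genes do not show that the levels of the list were equal. The list median was 0.003, against 0.02 over all genes. Cul2, the cullin of the ligase, stood at 112 and 100.1 CPM in B6 and at 80.9 and 99.7 CPM in 129, with a log2 fold change of -0.24 (SE 0.21). The adaptor genes Elob and Eloc were at -0.04 (SE 0.19) and 0.00 (SE 0.20), and Rbx1, the ring subunit, at 0.28 (SE 0.23). Uhrf1, which directs maintenance methylation, was at -0.11 (SE 0.18) and Dnmt1, the maintenance methyltransferase, at -0.13 (SE 0.19). Among the retinoic acid receptors Rara was at 0.49 (SE 0.21) and Rarg at 0.28 (SE 0.19), and Rarb had 6 to 11 counts and was not tested. Ezh2, a Polycomb methyltransferase, was at 0.62 (SE 0.27), with 78.6 and 54.1 CPM in B6 and 86.1 and 118 CPM in 129.

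Other germline gene families, mostly X-linked, had negative fold changes for most members, and few passed the test. Of 35 tested genes of this list 27 had a negative log2 fold change. EdgeR called 1 lower and 0 higher, and DESeq2 called 10 lower and 1 higher. Over all 16005 genes tested, edgeR called 163 lower and 294 higher, and DESeq2 913 lower and 1542 higher. The list median was -0.67. The gene called was Usp26, a ubiquitin protease gene, at 428 and 367 CPM in B6 and 132 and 170.2 CPM in 129. Its log2 fold change was -1.40 (SE 0.21, edgeR adjusted p = 0.033).

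Most genes of germ cell identity had lower values in 129. Of 21 listed, all tested, 3 were called lower, 1 higher and 17 did not pass, 17 had a negative log2 fold change, and the list median was -0.77. DESeq2 called 9 lower and 2 higher. Over all genes tested, edgeR called 1.02% lower and 1.84% higher, and DESeq2 called 5.7% lower. Their summed level was 6393 to 6500 CPM in B6 and 3903 to 5096 CPM in 129, and none was at 0. The genes called lower were Tex19.1 at -1.90 (SE 0.22), Sohlh1 at -1.55 (SE 0.20) and Uchl1 at -1.20 (SE 0.19), and the gene called higher was Etv5, a transcription factor gene of stem spermatogonia, at 1.64 (SE 0.22). Ret, Gfra1 and Dppa4 also had positive values, of 1.21 (SE 0.41), 0.61 (SE 0.46) and 0.26 (SE 0.25), and were not called. Ddx4, a germ cell RNA helicase gene, was at 517 and 454 CPM in B6 and 276 and 379 CPM in 129. Its log2 fold change was -0.57 (SE 0.21, edgeR adjusted p = 0.14). When the libraries were scaled to this list, an alternative added after the data were seen, the median of all genes shifted by 0.70. Pramef12 was then at -0.99 (SE 0.31, edgeR adjusted p = 0.037) and passed. Pramel1 was at -0.80 (SE 0.34, adjusted p = 0.10) and Pramef8 at -0.66 (SE 0.37, adjusted p = 0.21), and neither passed. Pramel3 was at 0.20 (SE 0.52) and Prame at 0.32 (SE 0.62), turned in sign.

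Some markers of other testis cells differed between the strains, and their part in the Prame values was not tested. For comparison, edgeR called 1.84% of all genes tested higher and 1.02% lower, and DESeq2 called 1542 of 16005 higher and 913 lower. An unadjusted edgeR p under 0.05 was found for 4492 of the 16005. The 12 Sertoli markers summed to 21.9 to 25.1 CPM in B6 and to 151 to 287 CPM in 129, with 2 of 10 tested higher and 0 lower. The 2 called, Clu and Rhox5, made up most of the 129 sums. Clu stood at 193 and 90.5 CPM there and Rhox5 at 64.5 and 19.4 CPM. Sox9 stood at 3.09 and 5.45 CPM in B6 and at 8.79 and 6.92 CPM in 129. Fshr had 1 count in 1 B6 library and 0 counts in 129. Of the 10 Sertoli markers tested, 0 had a negative log2 fold change, and the list median was 1.36. At an unadjusted p under 0.05 in edgeR there were 5. The 6 endothelial markers summed to 23.5 to 24.3 and 86.2 to 204 CPM, with 2 of 6 higher. These were Cdh5, at 87.9 and 27.0 CPM in 129, and Eng, at 95.9 and 32.6 CPM, and the other endothelial markers reached at most 10.95 CPM in any library. The 12 fibroblast markers summed to 3929 to 6130 CPM in B6 and 2667 to 6744 CPM in 129, and Fn1, which encodes fibronectin, took 4067 CPM of the highest sum. Pdgfra was the 1 gene called higher by edgeR, and 0 were lower. The list ran the other way by its median of -0.96: 8 of 12 had a negative log2 fold change, 5 of the 7 with an unadjusted p under 0.05 among them, and DESeq2 called 5 lower and 2 higher. The 6 peritubular markers summed to 23.6 to 81.3 and 40.3 to 93.2 CPM, with Des, the desmin gene, called higher by edgeR, and 1 called higher and 1 lower by DESeq2. The 6 Leydig markers summed to at most 9.04 CPM and the 6 macrophage markers to at most 49.7 CPM in any library. Only 1 Leydig marker, Star, and 4 macrophage markers had enough counts to be tested. EdgeR called 0 of these 5, with 0 Leydig and 1 macrophage marker at an unadjusted p under 0.05, and DESeq2 called 1 macrophage marker higher. None of these markers was at 0 in all 4 libraries.

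**Figure D5:**
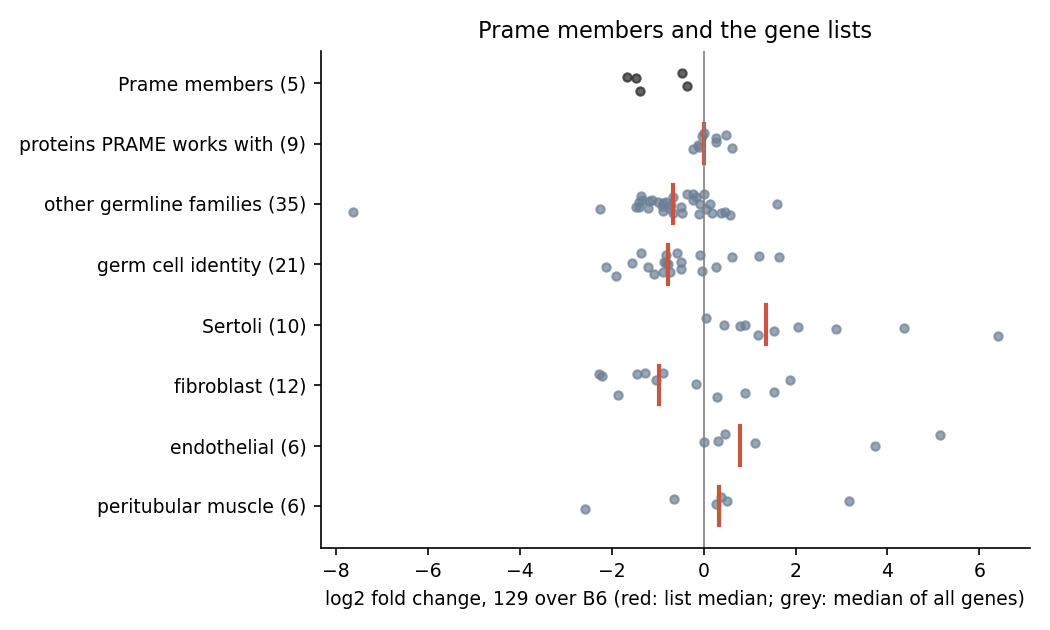
Log2 fold change of 129 over B6 for each tested gene of the Prame family and of 7 lists; each point is 1 gene, red lines are list medians and the grey line the median of all genes. Germ cell identity genes have a median of -0.77 and genes of the PRAME partner list one of 0.003. The point furthest left, Fthl17b, had 0 counts in 129, so its fitted value depends on the prior count.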

How the data were processed

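The authors deposited unnormalised read counts by gene for 4 libraries. Tools named in the submitters' processing notes are HISAT2 2.2.1, HTSeq 0.13.5, cutadapt 3.4, DESeq2 1.30.1 and bcl2fastq 2.20, with the build mm10. For the annotation, the strand setting and the handling of reads with several matches, nothing is given in the sources used here. The build mm10 is a C57BL/6 genome, and the loss of 129 reads at variants was not tested.

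The members, gene lists and tests were chosen with earlier results of these data known. From the counts edgeR 4.0.16 (R 4.3.3) was run with filterByExpr, TMM factors (0.982 to 1.036), the robust quasi-likelihood test with strain as the only term, and Benjamini-Hochberg adjustment over 16005 genes at 0.05. SE values were taken as the size of the log2 fold change over the square root of F. CPM use TMM-scaled library sizes. limma 3.58.1 (voom) and DESeq2 1.42.0 were alternatives, with other scalings, filters, a replicate block and each library left out. Positions, exon lengths and transcripts came from GENCODE M21 (99.85% of the table's identifiers matched), and upstream sequences from RefSeq GRCm38.p6.

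Named were all members with 10 or more counts in both libraries of a strain, and other members by count. All tested genes of the PRAME partner list and the called genes of the other germline families were also named. Neighbours, Gm13119, single genes of the marker lists, Oog1 to Oog4, Fthl17b and the genes sharing windows were named after their values were seen. Lists got no set test.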

Additional observations from a re-analysis of the deposited data

How the results depend on the processing

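The number of counted members stayed at 5 with a minimum of 5 or 20 counts or 0.5 CPM and with each library left out, and was 7 with a minimum of 1 count. The summed level of the members, a log2 ratio of -1.51 (129 over B6), moved to -0.82 when scaled to the germ cell list and lay from -1.67 to -1.38 with each library left out. Prame (0.32) and Pramel3 (0.20) turned in sign under that scaling alone. The count of genes called, 457 by edgeR, was 1052 with library totals, 260 without a filter, 2455 with DESeq2 and 263 with limma-voom. It was 3028 scaled to the germ cell list, with 2890 higher and 138 lower against 294 and 163. With each library left out it ranged from 0, where 3251 genes had an unadjusted p under 0.05, to 827. With the replicate number as a block it was 844, and the block changed no call of a member. Replicate numbers share no stated source, and the within-strain differences of replicate 1 and replicate 2 had a correlation across genes of -0.01 between strains, so they were not treated as pairs. Depth limits Prame, with 46 to 91 counts per library, and the 9 members below the minimum.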
